A study of Mus musculus with 12 samples.

Results

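Connexins are the proteins of vertebrate gap junctions, and the 7 connexin genes Gja1, Gjb1, Gjb2, Gjb6, Gjc1, Gjc3 and Gjd2 were followed in cultured mouse oligodendrocyte progenitor cells (OPCs). They were taken by name from the 20 connexin genes of the annotation, out of 55536 genes with a summed read count. They were chosen by the read counts of these same libraries, so the differences below describe the libraries and are not an independent test of them. OPCs came from the brains of mouse pups at P4 to P6, several brains being pooled for each experiment. They were sorted by green fluorescence driven by a Sox10:Cre recombined reporter, which marks the whole oligodendrocyte lineage, or by magnetic beads against CD140a, the PDGF receptor of OPCs. All cultures grew with PDGFaa at 10 ng/ml and bFGF at 20 ng/ml, as the labels state them, while the study's methods name higher concentrations of both. The 4 Ctr-OPC cultures received no further treatment, 4 Dexa cultures received the glucocorticoid dexamethasone at 1 µM for 48 h, and 4 IFNg cultures received interferon gamma at 100 ng/ml for 48 h. The study took its replicates from different litters, and cultures with the same replicate number, 1 to 4, are called a litter below, since they varied together. No source used here states how litters were divided over the conditions. Replicates 3 and 4 share the first part of their titles, whose meaning is not stated, and were the closest libraries within Ctr and within IFNg, so they may be less independent than the others. The labels also carry an EAE mouse model tag on every sample, although the cells are from pups, and no comparison of animals with and without that disease model was made here.

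Connexins assemble into hemichannels that dock between neighbouring cells to let ions and small metabolites pass. In the brain the astrocyte connexins are Cx43 (Gja1), Cx30 (Gjb6) and Cx26 (Gjb2), while mature oligodendrocytes carry, among others, Cx32 (Gjb1) and Cx29 (Gjc3). Cx36 (Gjd2) is the main connexin of electrical synapses between neurons, and Cx45 (Gjc1) is found in neurons and in vascular and cardiac muscle.

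The 250 bases before the start of transcription are printed for 3 genes on which the results below turn: Gjd2, which had the largest fitted difference of the 5 tested genes after IFNg, Gjb1, whose reads were put on 1 of several start sites in most libraries, and Gjc3, whose litters differed in direction. The sequences are from RefSeq on GRCm38.p6, 5′ to 3′ on the strand of the gene. Capitals mark CG dinucleotides in Gjd2 (chr2:114013620-114013869, minus strand). In Gjb1 (chrX:101383482-101383731, plus strand) they mark a TATAAA and the reverse complement of the SOX-type hexamer ACAATG. In Gjc3 (chr5:137963099-137963348, minus strand) they mark the reverse complement of an interferon-response-type pattern, GAAA repeated after 2 bases.
Gjd2: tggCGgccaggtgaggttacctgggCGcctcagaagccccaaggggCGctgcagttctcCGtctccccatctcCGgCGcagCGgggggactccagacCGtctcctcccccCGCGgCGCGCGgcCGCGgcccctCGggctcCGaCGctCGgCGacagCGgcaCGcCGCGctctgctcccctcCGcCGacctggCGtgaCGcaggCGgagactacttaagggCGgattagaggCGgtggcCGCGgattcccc
Gjb1: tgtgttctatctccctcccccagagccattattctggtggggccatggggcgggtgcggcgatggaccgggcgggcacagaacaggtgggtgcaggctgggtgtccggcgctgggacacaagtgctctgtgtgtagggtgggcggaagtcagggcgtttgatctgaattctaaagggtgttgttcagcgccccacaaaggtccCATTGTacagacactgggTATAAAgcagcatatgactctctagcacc
Gjc3: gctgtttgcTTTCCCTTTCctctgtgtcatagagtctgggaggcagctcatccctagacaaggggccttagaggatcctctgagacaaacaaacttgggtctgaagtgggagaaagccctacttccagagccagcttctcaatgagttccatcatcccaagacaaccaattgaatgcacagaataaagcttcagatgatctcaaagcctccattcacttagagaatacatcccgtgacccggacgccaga

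A window was held for 6 of the 7 genes, all but Gjc1, with 9 windows in all. The Gjd2 window was rich in G and C, at 74.0% against a median of 52.4% over 32817 windows, and held 33 CG dinucleotides against a median of 6. GAAA repeated after 2 bases was in the Gjc3 window alone of the 9, at 241 to 232 bases before the start, and in 2.97% of all windows, both strands being searched. The glucocorticoid receptor half-site AGAACA was in 2 of the 4 Gjb1 windows and in 16.1% of all windows, and ACAATG and TATAAA were in 10.7% and 12.4%. The match of TATAAA in Gjb1 lay 29 to 24 bases before the start and that of ACAATG 47 to 42 bases before it. A match gives letters only and is not evidence of binding.

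The counts are Salmon read estimates summed per gene. The 11 complete libraries held 19209063 to 52074652 reads in genes. The table of Dexa replicate 3 breaks off part-way through a line, with 47855 transcripts or 33.7% of those in a complete table, so this library was left out of the main fit. It lists Gja1, Gjb2, Gjb6 and Gjc1 whole, and its values for them were scaled over the 19130 genes that all 12 tables list whole. Normalized counts are reads divided by the size factor of the library, which ranged from 0.572 to 1.61, and they serve to compare libraries. With a minimum of 10 reads in at least 4 libraries, 17919 genes were tested, among them 5 of the 7 connexin genes. Gjb2 and Gjb6 did not pass.

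Gjd2 (ENSMUSG00000068615, chromosome 2, 114009601 to 114013619, minus strand) had the largest fitted difference of the 5 tested connexin genes, and it was lower after IFNg in every litter. Its normalized counts in the Ctr cultures of litters 1 to 4 were 108.3, 142, 178 and 140.1. In the IFNg cultures they were 6.96, 6.61, 29.1 and 37.2. The highest IFNg value lay below the lowest Ctr value, so the groups did not overlap, as in the same direction for 5.66% of all genes tested. IFNg cultures held 6.42%, 4.66%, 16.3% and 26.6% of the Ctr level of their own litter, which left litters 3 and 4 with more of the transcript than litters 1 and 2. The fitted log2 fold change was -3.01 ± 0.34 (SE), an 8.04-fold lower level (DESeq2 with litter as a block, adjusted p = 2.70e-17). Over all alternative fits and left-out libraries its adjusted p ranged from 4.70e-22 to 0.00406. Behind these values stood 118 to 259 reads per Ctr library and 7 to 29 per IFNg library. Dexa cultures of litters 1, 2 and 4 had normalized counts of 117, 193 and 173, each above the Ctr culture of its litter, at 107.6%, 136% and 123% of it. That difference did not pass the test (log2 0.35 ± 0.33, DESeq2 adjusted p = 0.926, 95% interval -0.31 to 1.00).

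The Gjd2 gene has 1 annotated transcript, and its 5′ end overlaps an antisense gene, A530058N18Rik. That neighbour had 9 to 28 reads in the Ctr libraries, 0 to 2 in the IFNg libraries and 19 to 31 in the 3 complete Dexa libraries. The library kit keeps the strand, but whether Salmon was run with it is not given in the sources used here, so reads of the overlapping bases may have been shared between both genes. The neighbour had fewer reads than Gjd2 in every library.

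**Figure D1:**
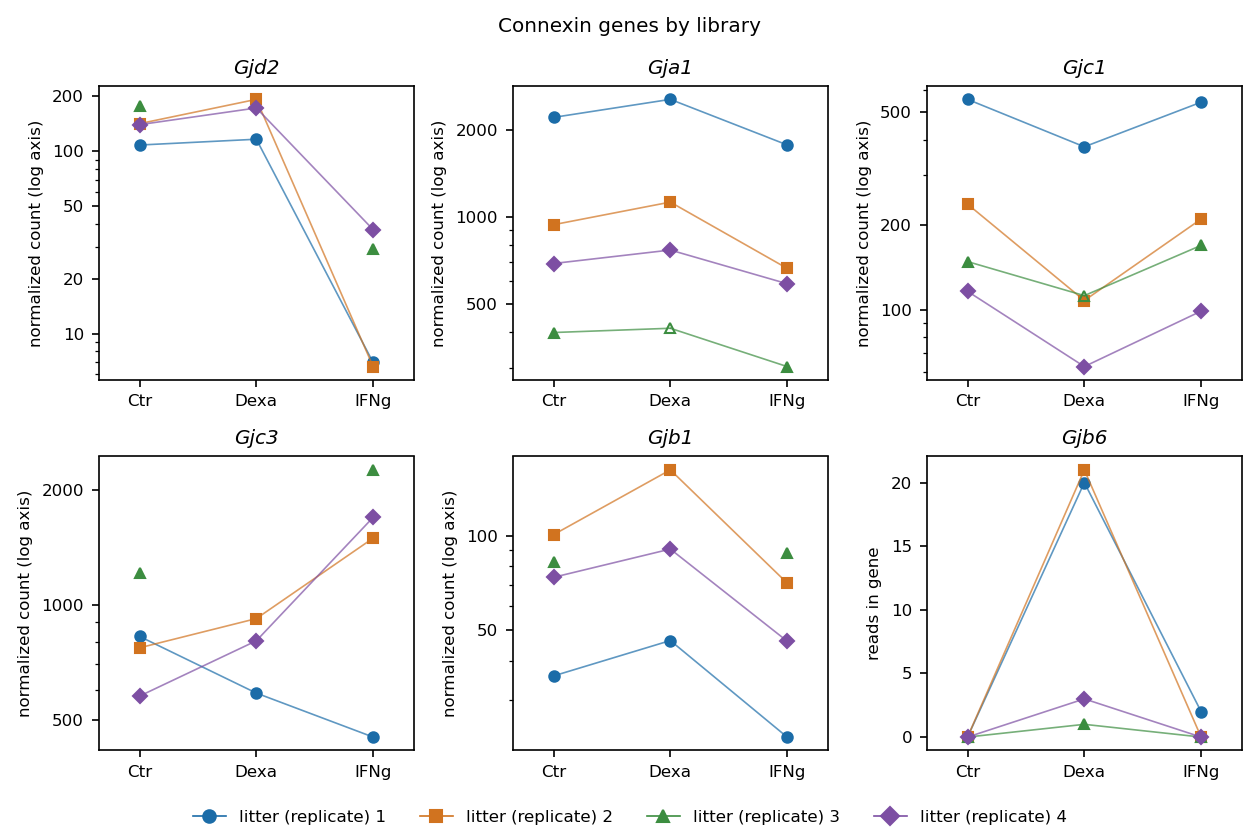
Normalized counts (log axis) of 5 connexin genes and reads of Gjb6 (linear axis) in Ctr, Dexa and IFNg cultures, with 1 symbol per litter and lines joining cultures of the same litter; open symbols are Dexa replicate 3 on the scale of the 12 tables, and no value is drawn where that table does not list the gene. Gjd2 is low in all 4 IFNg cultures, the Gja1 and Gjc1 lines run nearly parallel at heights that differ by litter, and Gjc3 runs down in litter 1 and up in the others.

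Of the astrocyte connexins, Gja1 (ENSMUSG00000050953, chromosome 10, 56377330 to 56402513, plus strand) was abundant, and it was 22.0% lower after IFNg within litters. Its normalized counts in Ctr cultures 1 to 4 were 2208, 940, 399 and 691. The IFNg cultures had 1775, 665, 304 and 588. The groups overlapped almost wholly, because the litters differed 5.54-fold among the Ctr cultures alone, yet the IFNg culture was the lower one in 4 of 4 litters, at 70.7% to 85.1% of its Ctr culture. A fall in all 4 litters was seen for 23.4% of all genes tested. The fit gave a log2 fold change of -0.36 ± 0.09 (SE, DESeq2 with the litter block, adjusted p = 2.75e-04), and edgeR gave an adjusted p of 0.00301. Without litter in the model the SE rose to 0.61 and the adjusted p to 0.823. On the deposited TPM scale, which is relative to the other transcripts of the library, Gja1 in IFNg was level in litters 1 and 4 (log2 ratios of 0.0046 and 0.019) and lower in litters 2 and 3 (-0.28 and -0.49). The median gene moved on that scale by 0.26, 0.25, -0.08 and 0.23 in the 4 litters, and relative to that shift Gja1 was lower in each.

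In the Dexa cultures Gja1 had normalized counts of 2549, 1126 and 769 in litters 1, 2 and 4. In litter 3 the values on the scale of the 12 tables were 413 in Dexa and 377 in Ctr. Dexa was the higher one in 4 of 4 litters, at 109.6% to 119.7% of Ctr, but this did not pass the test in the 11 libraries (log2 0.21 ± 0.09, DESeq2 adjusted p = 0.420) or in the 12 (log2 0.19 ± 0.08, adjusted p = 0.237). Its 95% interval in the 11 libraries, not adjusted for the number of genes, was 0.02 to 0.39. A rise in all 3 litters with complete Dexa tables was seen for 21% of all genes tested.

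Gjb6 (ENSMUSG00000040055, chromosome 14, 57123303 to 57133611, minus strand) had reads almost only in Dexa cultures. The Ctr libraries held 0 reads each, the IFNg libraries held 2, 0, 0 and 0, and the Dexa libraries held 20, 21, 1 and 3 in litters 1 to 4. On its main coding transcript lay all 20 reads of Dexa 1 and 10.2 of the 21 of Dexa 2, but none of Dexa 3 or Dexa 4, whose reads lay on noncoding transcripts of the gene. The other 10.8 reads of Dexa 2 lay on a transcript with a retained intron. Against a floor of 3 counts per Ctr library, the mean of the 3 complete Dexa libraries was 5.97-fold higher. That ratio leaves out Dexa 3, with 1 read, and allows for no counting error in the Dexa libraries. It is therefore not a lower bound for the Dexa cultures, and the 3 reads of Dexa 4 only equal the floor. Litters 1 and 2 gave most of the Gjb6 reads, and those 2 litters also had the highest Gja1 counts. The Dexa libraries differed in depth. As normalized counts, Dexa 1, 2 and 4 had 21.6, 17.7 and 5.24, and Dexa 3 had 1.90 on the scale of the 12 tables. The gene did not pass the filter of 10 reads in at least 4 libraries, which reads in the 3 complete Dexa libraries alone cannot meet. A count of 0 reads in a library of this depth allows up to 3. Gjb2 (ENSMUSG00000046352, chromosome 14, 57098600 to 57104702, minus strand) had 0 to 7 reads in each of the 12 libraries, too few for any difference to be detectable at this depth.

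Markers of other cells were read beside these values. The summed normalized counts of 8 astrocyte markers (such as Gfap, Aqp4 and Slc1a3) were 53722, 42951, 19524 and 30659 in Ctr cultures 1 to 4, which is the same litter order as that of Gja1. In IFNg cultures they were 51923, 47316, 35977 and 48719, so litters 2 and 4 were not in the order of Gja1. In Dexa cultures of litters 1, 2 and 4 they were 68404, 57569 and 40429, in the order of Gja1. All 8 markers passed the filter, with 4 higher and 3 lower after IFNg, beside 15.2% and 14.1% of all genes tested. After Dexa 2 of these markers were higher, beside 2.05% of all genes tested. The part of astrocyte RNA in the Gja1 and Gjb6 values was not tested, and in bulk cultures fewer cells of a type and less RNA per cell cannot be told apart. Neuronal markers summed to 1402 to 1647 in Ctr and 2765 to 5119 in IFNg cultures, with 5 of 8 passing the filter. Of those 5, Tubb3 (log2 1.52) and Syt1 (1.11) were higher after IFNg and Snap25 (-0.46) and Gad1 (-1.33) lower, beside the same shares of all genes. The sum and the single markers thus did not move one way, and their part in the Gjd2 value was not tested. Of the labelled cell type, all 10 marker genes (such as Pdgfra, Cspg4 and Sox10) passed the filter, with sums of 192583 to 443147 in Ctr. In IFNg cultures those sums were 129334 to 307483 and 7 of the 10 were lower, in the direction of Gjd2 and Gja1, beside 14.1% of all genes tested. Over the 11 complete libraries the OPC sum went with Gjd2 (Pearson r = 0.68 of log2 values) and against Gja1 (-0.62). Larger coefficients were those of the neuronal sum, which went against Gjd2 (-0.92), and of the astrocyte sum, which went with Gja1 (0.74). The part of OPC RNA in the Gjd2 and Gja1 values was not tested. Microglial markers summed to 14.7 to 55.2 over all complete libraries, and Aif1 and Cx3cr1 had at most 3 reads in any of them.

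The oligodendrocyte connexins were less uniform. Gjc3 (ENSMUSG00000056966, chromosome 5, 137953461 to 137963098, minus strand) had normalized counts of 827, 772, 1216 and 577 in the Ctr cultures. In the IFNg cultures it had 450.1, 1498, 2264 and 1698. It was thus lower in litter 1, at 54.4% of Ctr, and higher in litters 2, 3 and 4, at 194%, 186% and 295%. Over the 4 litters the log2 fold change of 0.67 ± 0.39 did not pass the test (DESeq2 with the litter block, adjusted p = 0.208). It passed when a library of litter 1 was left out: without Ctr replicate 1 it was 1.01 (adjusted p = 0.00683), without IFNg replicate 1 it was 1.04 (8.42e-12) and without any library of litter 1 it was 1.13 (1.65e-14). Over all alternatives the adjusted p ranged from 1.65e-14 to 0.694, the highest with litter 4 left out. Litter 1 was also the one with the lowest summed OPC markers (192583 in Ctr against 322282 to 443147 in the other litters) and the lowest summed oligodendrocyte markers (11489 against 28855 to 73707). Over the 11 complete libraries Gjc3 followed these sums only weakly, with a Pearson r of log2 values of 0.27 and 0.20. The part of these cells in the Gjc3 value was not tested. Dexa cultures of litters 1, 2 and 4 had 587, 921 and 805, at 71.0%, 119% and 139.7% of Ctr, with a fitted log2 difference of 0.05 ± 0.44 (DESeq2 adjusted p = 1.00, 95% interval -0.80 to 0.91).

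Gjb1 (ENSMUSG00000047797, chromosome X, 101376378 to 101385629, plus strand) was low. Its normalized counts were 35.8, 101, 82.7 and 73.8 in Ctr, 22.9, 70.8, 88.6 and 46.2 in IFNg, and 46.4, 163 and 90.9 in the Dexa cultures of litters 1, 2 and 4. IFNg was below Ctr in 3 of 4 litters and Dexa above Ctr in 3 of 3, a run that 21% of all genes tested shared. Neither difference passed the test: IFNg gave a log2 of -0.40 ± 0.23 (DESeq2 adjusted p = 0.195) and Dexa 0.57 ± 0.25 (adjusted p = 0.372). The 95% intervals, not adjusted for the number of genes, were -0.85 to 0.05 for IFNg and 0.08 to 1.06 for Dexa. Like the OPC markers, Gjb1 was lowest in litter 1 in each condition.

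Gjc1 (ENSMUSG00000034520, chromosome 11, 102799579 to 102819700, minus strand) was lower in the Dexa culture of each litter and nearly level after IFNg. Its normalized counts in Ctr cultures were 556, 237, 148 and 116. Dexa cultures of litters 1, 2 and 4 had 378, 108 and 62.9, and in litter 3 the scale of the 12 tables gave 112 in Dexa against 139.8 in Ctr. The Dexa culture was thus at 67.9%, 45.5%, 80.2% and 54.1% of Ctr in litters 1 to 4, although the groups overlapped. The log2 fold change was -0.80 ± 0.17 (SE, DESeq2 with the litter block, adjusted p = 2.79e-04, edgeR 0.0187), and with all 12 libraries -0.72 ± 0.16 (DESeq2 adjusted p = 2.61e-04, edgeR 0.0175). The call rested on litter 2: without Dexa replicate 2 the value was -0.65 (adjusted p = 0.155) and without that litter -0.63 (adjusted p = 0.239), while it held in the other 13 of 15 omissions. Without litter in the model the SE was 0.72 and the adjusted p 1.00 in both tools. IFNg cultures had 544, 210, 169 and 98.9, on both sides of their Ctr cultures (log2 -0.06 ± 0.15, DESeq2 adjusted p = 0.825, 95% interval -0.35 to 0.23).

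Among the 5 tested genes, 2 passed the threshold after IFNg (Gjd2 and Gja1, both lower), beside 29.2% of all genes tested, and 1 after Dexa (Gjc1, lower), beside 2.57%. Because the genes were chosen with these contrasts known, the counts are not read against those shares. Set directly against each other, IFNg and Dexa cultures differed in 4 of the 5, beside 31.6% of all genes tested. These were Gjd2 (log2 -3.35 ± 0.38), Gja1 (-0.57 ± 0.10), Gjb1 (-0.97 ± 0.26) and Gjc1 (0.74 ± 0.17), with DESeq2 adjusted p-values of 1.76e-17, 5.24e-08, 0.00104 and 1.35e-04. For Gjb1, IFNg held 49.2%, 43.6% and 50.9% of the Dexa level in the 3 litters, but the adjusted p was 0.0765 without Dexa replicate 2 and 0.122 without litter 2. For Gjc1 the IFNg culture was the higher one in 4 of 4 litters, at 142% to 194% of Dexa. Both treatments share the Ctr cultures, and this last comparison reuses the same treated cultures, so the 3 sets of values are not independent.

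**Figure D2:**
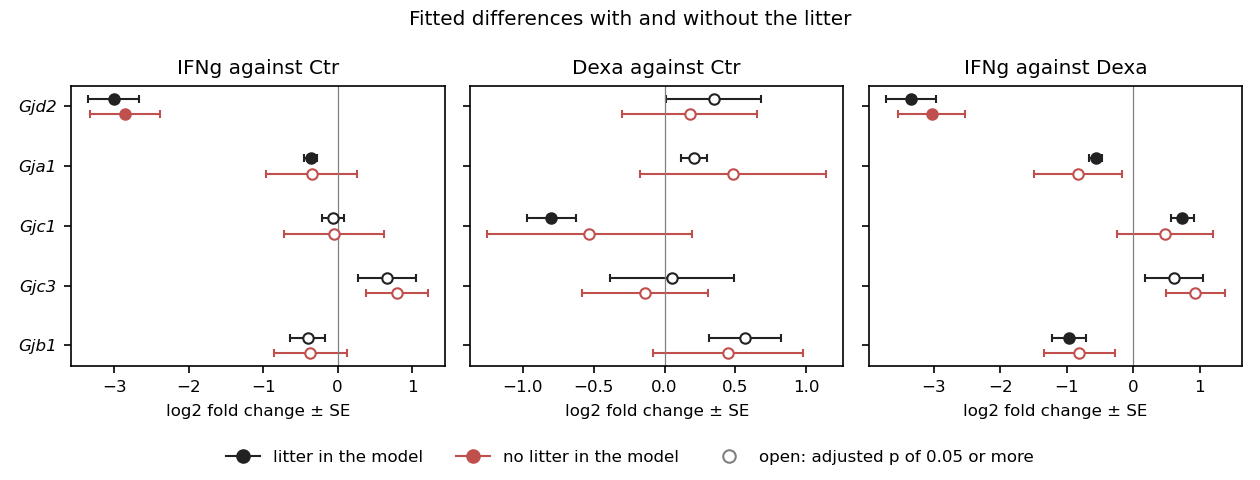
Fitted log2 fold change ± SE of the 5 tested connexin genes in the 3 comparisons, with litter in the model (black) and without it (red); filled symbols have an adjusted p under 0.05. Gjd2 is filled in both fits where IFNg is compared, while Gja1, Gjc1 and Gjb1 are filled only with litter in the model and have far wider bars without it.

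Of the listed connexin genes that were tested, all but Gjd2 had a larger share of the sum of squares for litter than for treatment with IFNg. Litter has more degrees of freedom than treatment in this split, which by itself gives it a larger share. Dexa cultures were left out of this split. Over the 4 Ctr and 4 IFNg libraries, litter took 95.9% of the sum of squares of log2(CPM + 1) for Gja1 and 99.1% for Gjc1, against 3.71% and 0.099% for treatment. Gjd2 was the reverse, with 89.5% for treatment and 7.92% for litter. For Gjc3 treatment took 18.5%, litter 46.6% and neither term 34.9%, its litter 1 culture having moved against the rest. With so large a rest, the order of its litter and treatment shares is not read. The median over all genes tested was 57.3% for litter and 17.3% for treatment.

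**Figure D3:**
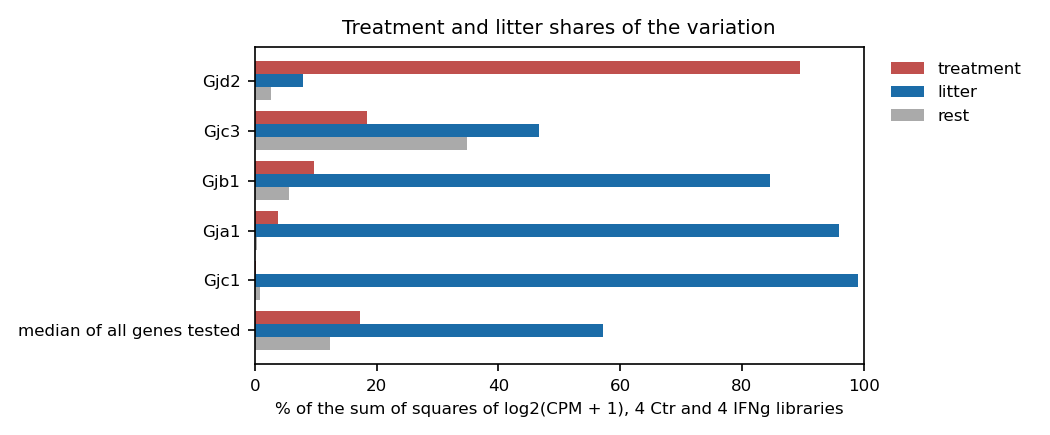
Shares (%) of the sum of squares of log2(CPM + 1) taken by treatment, by litter and by neither, for 5 connexin genes over 4 Ctr and 4 IFNg libraries, with the median of each share over all genes tested. Treatment has the longest bar for Gjd2, and litter has it for the other 4 genes. Litter has more degrees of freedom than treatment, and the shares are not divided by them.

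Levels of different genes were compared per length, as TPM within a library. Over the Ctr cultures the mean TPM was 6.63 ± 4.50 (SD, n = 4) for Gja1, 4.37 ± 1.57 for Gjc3, 2.67 ± 1.86 for Gjc1, 1.00 ± 0.42 for Gjb1 and 0.990 ± 0.256 for Gjd2, with Gjb2 at 0.018 and Gjb6 at 0. Neighbours in this order differed by less than the larger of their SDs, apart from the step from Gjd2 to Gjb2. Within single libraries Gja1 was the highest connexin in Ctr 1, 2 and 4, with 48.1%, 35.2% and 30.3% of the summed TPM of the 20 connexin genes. Gjc3 was the highest in Ctr 3, at 43.5%. After IFNg, Gjc3 led in litters 2, 3 and 4 with 47.9%, 66.7% and 56.5% of the sum, while in litter 1 Gja1 led with 52.7% and Gjc3 held 10.1%. Gjd2 held 2.53% to 8.60% of the sum in Ctr and 5.79% at most in Dexa cultures. The Gjb6 TPM of 1.10 in Dexa 4 came from 3 reads, 1 of them on a transcript of 201 bases, and is not comparable with the others.

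**Figure D4:**
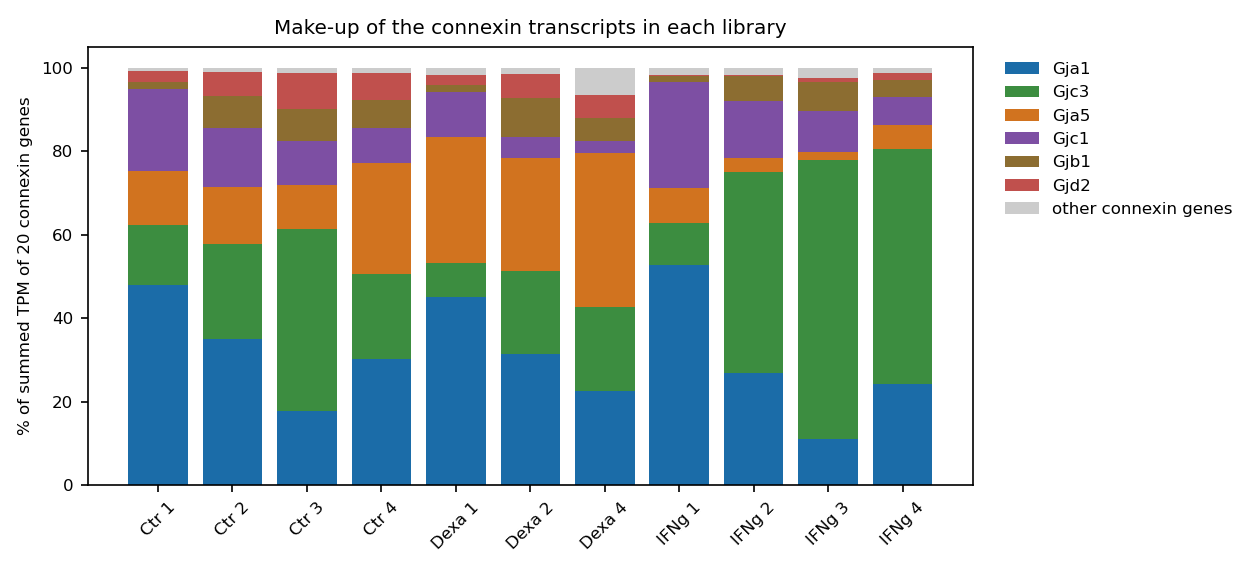
Share (%) of the summed TPM of the 20 connexin genes taken by 6 of them in each of the 11 complete libraries, the rest in grey. Gjc3 takes the largest part in Ctr 3 and in IFNg 2, 3 and 4, Gja1 takes it in Ctr 1, 2 and 4, Dexa 1 and 2 and IFNg 1, and Gja5, a gene outside the 7, takes it in Dexa 4.

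At the level of transcripts, Gja1 reads lay on the coding transcript Gja1-201 for 95.5% to 99.6% in all 12 libraries, and Gjc3 reads on Gjc3-201 for 98.7% to 99.8%. For Gjb1, whose windows are given above, 100% of reads were put on Gjb1-203 in 8 of the 11 libraries and nearly all in Ctr 4. Its start lies 4 bases from the RefSeq start of the printed window. The exceptions were both in litter 1: Ctr 1 had 19.9 of 39 reads, and IFNg 1 all 23, on a transcript that starts upstream, at position 101376378. The transcripts share the coding exon, so that only reads at the 5′ end tell them apart. For Gjc1 the split was unstable between replicates of one group, with 0.017% of reads on Gjc1-201 in IFNg 4 against 63.7% to 87.6% in the other IFNg libraries, so that shares of its transcripts were not compared between conditions.

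Among the other genes of the family, Gja5 (Cx40, known from endothelium and atrial muscle) had the clearest pattern, with values moving opposite ways in the 2 treatments. Its normalized counts were 587, 372, 236 and 573 in Ctr, 277, 86.8, 52.5 and 100.1 in IFNg and 1521, 875 and 1171 in the Dexa cultures of litters 1, 2 and 4. The Dexa cultures lay above all Ctr cultures, as for 2.58% of all genes tested, and IFNg was lower in 4 of 4 litters. The log2 fold changes were -1.91 ± 0.19 after IFNg (DESeq2 with the litter block, adjusted p = 2.35e-22, edgeR without the block 0.0513) and 1.17 ± 0.20 after Dexa (adjusted p = 5.91e-07, edgeR 0.0163, DESeq2 without the block 0.404). The 10 fibroblast and vascular markers together gave 241 to 385 in Ctr, 397 to 416 in Dexa and 576 to 774 in IFNg. Of the 9 tested, 2 were higher after IFNg, Lum (log2 4.18) and Acta2 (2.33), and 1 was lower, beside 15.2% and 14.1% of all genes. The lower one was the endothelial marker Kdr, which went in the direction of Gja5, at -0.81 ± 0.25 after IFNg (DESeq2 adjusted p = 0.00499) and 0.71 ± 0.25 after Dexa (adjusted p = 0.139). Pecam1, also endothelial, was at -0.54 ± 0.66 after IFNg (DESeq2 adjusted p = 0.616). After Dexa it was at -0.60 ± 0.73, against the direction of Gja5, with no adjusted p given by the fit. Another endothelial marker, Cldn5, had at most 3 reads anywhere, and the part of endothelial RNA in the Gja5 values was not tested. In all, 8 of 23 connexin and pannexin genes were tested, 4 were lower and 0 higher after IFNg (beside 14.1% and 15.2% of all genes), and 1 was higher and 1 lower after Dexa (beside 2.05% and 0.513%). The family includes the listed connexin genes, chosen with these contrasts known, so these counts are likewise not read against those shares. The fourth one lower after IFNg was Panx2, a pannexin of neurons, with log2 -1.43 ± 0.42 (DESeq2 adjusted p = 0.00366), a call held in 11 of 15 omissions. It was lost without litter 2 (adjusted p = 0.0935), without litter 4 (0.0519), without Ctr replicate 2 (0.0655) and without IFNg replicate 2 (0.0559), with length-scaled counts (log2 -1.05, adjusted p = 0.0541) and without the block (0.190 in DESeq2, 0.251 in edgeR). Panx1, which forms channels in unpaired membranes, was the family member with the highest TPM, at 20.5 ± 3.27 (SD, n = 4) in Ctr, and its log2 difference after IFNg was 0.01 ± 0.07 (adjusted p = 0.940). With length-scaled counts that value was 0.22 (adjusted p = 0.017). After Dexa the Panx1 difference was 0.03 ± 0.08 (adjusted p = 0.993).

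A list of 28 genes whose proteins bind, phosphorylate, anchor or degrade connexins was read in the same fit, and 27 were tested. After IFNg 11 passed the threshold, 4 higher and 7 lower, which is 40.7% beside 29.2% of all genes. The median log2 change of the 27 was -0.01, as over all genes, and the median size of the change was 0.12 against 0.21 over all genes. Cav1, the caveolin scaffold, had the largest drop of those named (log2 -1.24 ± 0.18), followed by the kinase genes Prkca (-0.61 ± 0.07) and Mapk7 (-0.35 ± 0.09), with Ctnnb1 (-0.26 ± 0.05) and Csnk1d (-0.20 ± 0.06) lower as well. The adherens junction gene Ctnna1 (0.68 ± 0.11) and the kinase gene Prkce (0.56 ± 0.09) were higher. The DESeq2 adjusted p-values of these 7 ran from 9.14e-16 to 0.00431. After Dexa 1 passed, Cav1, which was higher (log2 0.86 ± 0.20, DESeq2 adjusted p = 8.99e-04, edgeR 0.0692), beside 2.57% of all genes.

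The genes whose log2(CPM + 1) followed each connexin gene most closely over the 11 libraries, among 12155 or 12156 other genes with a mean normalized count of at least 100, were the following. For Gjd2 they were Frmpd1 (r = 0.995), Cdk5r1 (0.990) and Rph3a (0.986), and for Gja1 they were Galnt4 (0.99), Btbd17 (0.98) and Acaa2 (0.98). Gjc1 went with Hnrnpl, Cbx1 and Slc43a1 (r of 0.98 each), Gjc3 with Cdc14a (0.93), Nek9 (0.92) and Tmem255a (0.91), and Gjb1 with Ggt7 (0.95), Efr3b (0.95) and Gm22009 (0.93). The libraries share litters and treatments, and the highest of many coefficients is high by selection, so these are given as a description.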

How the data were processed

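The authors sequenced ribosome-depleted total RNA (TruSeq Stranded Total RNA, paired-end NovaSeq) and quantified transcripts with Salmon 0.8.2, as the labels and methods state. The deposited files give, per transcript, expected counts (estimated reads) and TPM. The file headers name an Ensembl 96 annotation, the labels mm10 and GRCm38. The authors' deposited tables of comparisons were not used, and 1 of the 12 transcript tables is incomplete. Gene counts are sums of these estimates by GENCODE M21 gene, rounded.

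DESeq2 1.42.0 (R 4.3.3) was fitted to 11 libraries (4 Ctr, 3 Dexa, 4 IFNg) with replicate number and group, over 17919 genes with at least 10 reads in at least 4 libraries. Wald tests were adjusted by Benjamini-Hochberg, and a call is an adjusted p under 0.05. By default DESeq2 sets genes of low count aside before this step, separately in each comparison, so some tested genes had no adjusted p. The replicate block follows from the study's use of different litters and from the data: deviations from group means correlated at 0.40 to 0.72 in 10 pairs with the same number and at -0.61 to 0.49 in 30 other pairs. No pair of complete libraries of the same group agreed within sampling noise, and pairs between groups were not checked for this. Alternatives were edgeR 4.0.16 (quasi-likelihood), no block, TMM factors, no count filter, length-scaled counts, 2 groups at a time, all 12 libraries over 19130 genes (6319 tested), and omission of each library or litter. Scripts were tested on simulated data. Promoter windows are those of RefSeq on GRCm38.p6.

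The 7 genes and all gene lists were chosen with earlier results of these data known. Named beside them were called family and partner genes (at most 8 per list, by smallest adjusted p, some not reported here), Panx1 and, per gene, the 3 genes with the highest Pearson r. Floors of 3 counts cover counting error only.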

Additional observations from a re-analysis of the deposited data

Results flagged for a closer look

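Gjb6 in IFNg replicate 1 had a normalized count of 1.99 (2 reads) against 0 in the other 3 IFNg cultures, and it was the 1 value marked by Dixon's rule among 19 groups of 4 libraries. With the other 3 at 0, any read in the last culture gives this mark, and 2 reads are fewer than the 3 that a library at 0 allows, so it does not show that this culture stood apart. Where values are not tied at 0, chance marks about 1 group in 20.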

How the results depend on the processing

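The replicate block, which stands for the litter, bore most on the calls. With it, 5238 genes passed after IFNg, 460 after Dexa and 5662 between IFNg and Dexa. Without it DESeq2 gave 2302, 98 and 2345, and edgeR 1513, 22 and 1571. Of the 7 connexin genes, 2, 1 and 4 passed with the block, and without it 1, 0 and 1 in both tools. Family genes went from 4 to 2 (DESeq2) and 1 (edgeR) after IFNg and from 2 to 0 after Dexa, and partner genes from 11 to 4 and 0 after IFNg and from 1 to 0 after Dexa. With the block edgeR called 282 genes and 0 partner genes after Dexa. Fitting only the 2 groups compared gave 1026 genes after Dexa and 3563 between IFNg and Dexa.

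With single libraries or litters left out, the genes called ranged from 177 (without litter 2) to 542 after Dexa and from 3488 (without litter 2) to 5300 between IFNg and Dexa, partner genes from 7 to 10 after IFNg and from 0 to 1 after Dexa, connexin genes from 0 to 1 and family genes from 1 to 2 after Dexa. Differences near 0 changed sign. Gjc1 after IFNg ranged from -0.14 to 0.022, and Panx1 after IFNg from -0.038 to 0.043. After Dexa Gjc3 ranged from -0.17 to 0.55 and Panx1 from -0.017 to 0.057. Without the block Gjc3 after Dexa was -0.14 in both tools and Panx1 -0.027 (DESeq2) and -0.028 (edgeR), and with length-scaled counts Panx1 was -0.038. None of these passed the threshold, and the cause was not tested. In every alternative Gjd2 stayed lower after IFNg and passed. Gjb2 and Gjb6 did not pass the count filter, and their values without that filter are not given here. A gene with reads only in the 3 complete Dexa libraries cannot pass it at any depth, since it asks for 4 libraries.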
